A study of Mus musculus with 14 samples.

Results

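The Nr4a nuclear receptors Nr4a1, Nr4a2 and Nr4a3 were followed through the chromatin accessibility of their loci in Treg cells. The assay was bulk ATAC-seq, in which a transposase cuts and tags open DNA, and its deposited values are read counts in windows of 201 bp, each placed at a peak summit. A window was assigned to a gene when that gene had the protein-coding start site nearest to the window's centre, within 100 kb. This gave 66 of the 240778 windows, of which 16 belong to Nr4a1, 23 to Nr4a2 and 27 to Nr4a3.

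Every mouse carried the Foxp3AID allele, which fuses Foxp3 to an auxin-inducible degron and reports its transcription with ZsGreen, and every mouse received 5-ph-IAA. Treatment lasted 3 days in 4 mice of each genotype at ROSA26, R26TIR1(F74G) and R26WT, and 7 days in 3 mice of each, so the 14 libraries differ in genotype at ROSA26 and in day. TIR1(F74G) is the plant-derived receptor through which 5-ph-IAA brings the fusion protein to a ubiquitin ligase, and it is expressed only after Cre from the Foxp3 locus removes a stop cassette. R26WT mice lack it and served as controls. The study describes its bulk samples as cells sorted by their reporters from the pooled secondary lymphoid organs of adult heterozygous females, and as resting and activated fractions, whereas the labels name Treg cells from spleen and lymph nodes without activation state, age or sex. For bulk chromatin accessibility the study describes day 7 of treatment, whereas the labels give days 3 and 7. Mice of the day 3 and day 7 groups are different mice, and no untreated group was used here.

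Library depth ranged from 5653289 to 20184487 counts in windows. Among 7 markers of Treg and CD4 T cells, 5 had a window within 500 bp of their start site, with Ctla4 at 15.2 CPM (the reads of a window relative to the normalized size of its library), Ikzf2 at 14.1, Il2ra at 13.0, Cd3e at 11.2 and Cd4 at 4.55. Foxp3 and Tnfrsf18 had none. The summed level of these 5 windows ranged from 57.6 to 65.7 CPM in R26WT and from 55.5 to 57.3 in R26TIR1(F74G) mice on day 7, and from 59.2 to 64.5 and from 47.0 to 64.7 on day 3. Of the B cell markers Cd79a, Ms4a1, Pax5 and Ebf1 only Ebf1 had such a window, at 1.36 CPM, and the NK cell markers Klrb1c and Ncr1 had none. The myeloid markers Cd14, Itgam and Spi1 were between 1.12 and 1.57 CPM, while Lyz2 and Csf1r had no window. Of the CD8 T cell markers Cd8a was at 1.33 and Cd8b1 at 12.5 CPM. The part of other cells in the results was not tested.

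Nr4a receptors are orphan members of the nuclear receptor family and immediate early genes, switched on within a short time of T cell receptor engagement through calcium, calcineurin, NFAT and MEF2 factors and, in many cell types, through cAMP and CREB. Nr4a1 (Nur77) is widely used as a reporter of T cell receptor signal strength, and Nr4a2 (Nurr1) and Nr4a3 (Nor1) have closely related DNA-binding domains that recognise the same element, the NBRE. In Treg cells the family is known for acting upstream of Foxp3 during differentiation and for helping to keep lineage identity afterwards.

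The promoters of the family are shown because all 3 share the core of the CRE, the element bound by CREB, and because accessible windows centred 115 bp (Nr4a1), 71 bp (Nr4a2) and 233 bp (Nr4a3) upstream of the start sites lie over or reach into these bases. Each sequence runs from 250 bases before to 50 bases after the RefSeq start site (GRCm38.p6), 5′ to 3′ along the gene's strand, with each CRE core (TGACG, or CGTCA where it lies on the other strand) in capitals. They lie at chr15:101266596-101266895 on the plus strand for Nr4a1, at chr2:57123954-57124253 on the minus strand for Nr4a2 and at chr4:48045055-48045354 on the plus strand for Nr4a3.
Nr4a1: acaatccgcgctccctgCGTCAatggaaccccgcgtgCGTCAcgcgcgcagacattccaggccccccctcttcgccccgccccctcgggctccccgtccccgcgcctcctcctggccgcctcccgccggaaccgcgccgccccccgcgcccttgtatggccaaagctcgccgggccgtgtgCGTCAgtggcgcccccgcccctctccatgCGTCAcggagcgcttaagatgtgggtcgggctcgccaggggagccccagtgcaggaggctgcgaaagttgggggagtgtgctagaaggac
Nr4a2: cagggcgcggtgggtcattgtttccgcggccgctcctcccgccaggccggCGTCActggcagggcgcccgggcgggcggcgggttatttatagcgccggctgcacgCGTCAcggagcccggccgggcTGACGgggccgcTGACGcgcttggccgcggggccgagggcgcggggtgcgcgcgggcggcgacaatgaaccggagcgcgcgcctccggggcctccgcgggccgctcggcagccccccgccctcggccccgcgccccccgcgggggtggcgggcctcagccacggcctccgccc
Nr4a3: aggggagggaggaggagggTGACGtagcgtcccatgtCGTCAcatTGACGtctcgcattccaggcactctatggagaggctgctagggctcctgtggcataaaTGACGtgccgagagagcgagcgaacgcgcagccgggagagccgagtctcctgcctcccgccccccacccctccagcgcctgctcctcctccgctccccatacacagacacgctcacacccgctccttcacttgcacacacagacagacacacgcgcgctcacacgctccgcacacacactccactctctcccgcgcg
Each of the 3 promoters holds 4 CRE cores. Of 21263 protein-coding promoters of the same length, 23.6% hold at least 1 and 0.325% hold at least 4. In Nr4a1 they fall into a distal pair starting at -233 and -213 and a proximal pair starting at -69 and -40, counted from the start site. In Nr4a2 they start at -200, -144, -123 and -111, and in Nr4a3 at -231, -213, -205 and -147. Neither of these promoters has a pair as close to its RefSeq start as that of Nr4a1. The distances depend on the start used. In the GENCODE annotation (vM39) the canonical start lies 67 bp upstream of the RefSeq start at Nr4a1 and 152 bp upstream at Nr4a3. At Nr4a2 it lies 7769 bp downstream, outside the printed bases. The full palindrome TGACGTCA was in none of the 3 (2.23% of all promoters hold it), nor was the NBRE AAAGGTCA (1.3%), the AP-1 element TGANTCA (6.99%) or the MEF2 letters CTATTTATA (0.451%) and CTATATTTA (0.179%). The NFAT core GGAAA, which 59.9% of promoters hold, was found once, in Nr4a2, and the TATA box letters TATAAA (12.6%) likewise only in Nr4a2, on the opposite strand. All motifs were searched on both strands, and TGACG lies within TGACGTCA. Only these exact letters were counted. The printed Nr4a2 bases hold ttatttata, which differs from the MEF2 letters CTATTTATA in its first base alone and contains the TATA match. These are letter matches within 300 bases and describe no binding. The GC content was 72.3% for Nr4a1, 81.7% for Nr4a2 and 64.7% for Nr4a3, above that of 91.5%, 99.3% and 74.7% of promoters.

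The 3 loci are laid out differently. Nr4a1 (chromosome 15, plus strand, start site at 101266846) had 11 of its 16 windows within the annotated gene, from 101253902 to 101274795, and 5 upstream of it. Nr4a2 (chromosome 2, minus strand, start site at 57124003, gene from 57106830 to 57124003) had 18 of 23 windows inside the gene, 1 upstream and 4 beyond its end. Nr4a3 (chromosome 4, plus strand, start site at 48045305, gene from 48045078 to 48086447) had 8 windows inside the gene and 19 upstream, the farthest 80501 bp away. Each gene had more windows than most, since the median of 21441 genes was 5 and 80.7%, 88.5% and 91.2% of genes had fewer than Nr4a1, Nr4a2 and Nr4a3. Windows can overlap, and those of Nr4a1, Nr4a2 and Nr4a3 form 14, 17 and 23 separate regions, so neighbouring windows share reads.

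**Figure D1:**
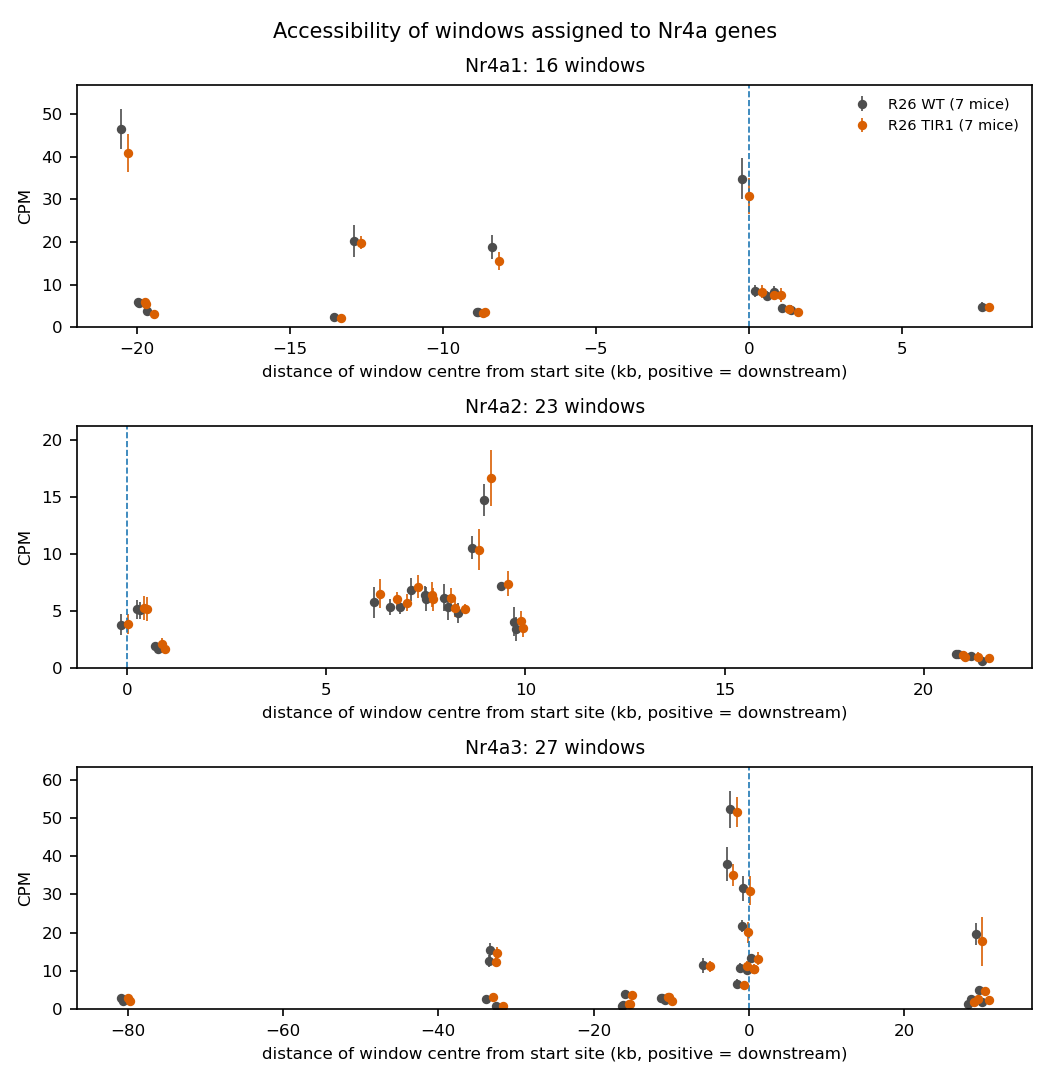
Mean CPM (vertical axis, linear) of each assigned window against the distance of its centre from the start site in kb (dashed line, positive is downstream along the gene), for 7 R26WT and 7 R26TIR1(F74G) mice with SD as bars. The points of the genotypes are set slightly apart for legibility. Nr4a1 peaks 20.4 kb upstream and at the start site, Nr4a2 about 9.0 kb inside the gene and Nr4a3 about 1.9 kb upstream.

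The most accessible window of the family lay at Nr4a3, 1932 bp upstream of its start site, with 51.9 ± 4.19 CPM (SD, n = 14), more than 99.7% of all windows. It was followed at the same gene by windows 2411 bp upstream, with 36.5 ± 3.91, and 233 bp upstream, with 31.3 ± 3.42. The window whose centre is nearest the start site, 208 bp inside the gene, had 10.6 CPM. Nr4a3 also had a distant accessible element 29686 bp downstream of the start site, inside the gene, at 18.7 ± 4.90 CPM.

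At Nr4a1 the highest window was 20424 bp upstream, with 43.7 ± 5.33 CPM (SD, n = 14). The window over the promoter, centred 115 bp upstream, had 32.9 ± 4.82 CPM, more than the start-site windows of 81.0% of the 11646 genes that have one. Windows 12798 bp and 8277 bp upstream followed with 20.1 ± 2.81 and 17.2 ± 2.86. In the GENCODE annotation (vM39, GRCm39, with the promoter found there as sequence), 10 of 29 Nr4a1 transcripts start between 12165 and 12747 bp upstream, next to the window at 12798 bp.

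Nr4a2 differed in that the promoter at its RefSeq start was little open. The window over it, centred 71 bp upstream, had 3.84 CPM, more than only 18.2% of start-site windows. The highest windows lay inside the gene at 9047, 8747 and 9479 bp downstream, with 15.7 ± 2.17, 10.4 ± 1.40 and 7.29 ± 0.786 CPM (SD, n = 14). In the same annotation the canonical Nr4a2 transcript starts 7769 bp downstream of the RefSeq start, and 25 of 33 transcripts start more than 5 kb downstream. The highest windows of this locus lie in that stretch. Near the RefSeq start, windows 343 and 420 bp inside the gene had 5.21 and 5.12 CPM, beside 5.01 at the window 8407 bp downstream.

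Averaged over windows that do not overlap, all of the same width, Nr4a1 had 11.8 ± 1.29 CPM per window, Nr4a3 11.2 ± 0.615 and Nr4a2 5.50 ± 0.466 (SD, n = 14). Nr4a2 was the lowest in every mouse, since its range of 4.44 to 6.31 lies below those of Nr4a1 (9.42 to 14.7) and Nr4a3 (10.0 to 12.2), which overlap each other. A single window held 26.4% of the summed level at Nr4a1, 20.2% at Nr4a3 and 16.8% at Nr4a2, and the leading 3 held 58.4%, 46.5% and 35.7%. Counts cannot tell whether fewer cells have a site open or the site is less open in each cell, here and in all comparisons that follow.

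**Figure D2:**
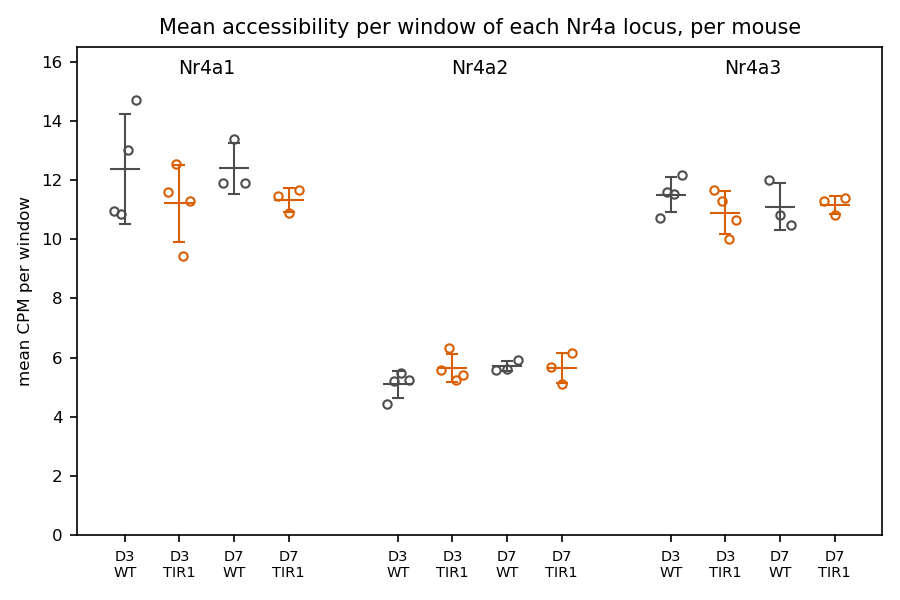
Mean CPM per window (vertical axis, linear from 0) over the non-overlapping windows of each locus (14 for Nr4a1, 17 for Nr4a2, 23 for Nr4a3) in every mouse (open points), by day and genotype, with group means and SD. Nr4a2 lies below the other loci in all 14 mice. At Nr4a1 the day 7 groups do not overlap, which was not tested. Groups do not overlap in 11.8% of all single windows, a different measure, and the share of loci averaged in this way was not counted.

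The question of the study, what happens to Treg chromatin once Foxp3 is degraded, was asked of these windows first on day 7. No difference between genotypes was called at an Nr4a window, which with groups of 3 mice does not show that none exists. By the quasi-likelihood test of edgeR, adjusted over all windows by the Benjamini-Hochberg method, 0 of 66 passed an adjusted p of 0.05 (smallest 0.722), where 0.00463% of all windows did. An unadjusted p under 0.05 was reached by 4 of the 66, which is 6.06%, against 5.95% of all windows. With DESeq2 it was 1 of the 66, against 2.68% of all windows. The groups of 3 mice did not overlap in 6 of the 66 windows (9.09%), against 11.8% of all windows. Of 16 Nr4a1 windows 10 were lower in R26TIR1(F74G) mice (median log2 fold change -0.09), of 23 Nr4a2 windows 14 were lower (median -0.06) and of 27 Nr4a3 windows 17 were higher (median 0.04), where the median of all windows was -0.01.

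The lowest unadjusted p of day 7 belonged to the Nr4a3 element 29686 bp downstream (chr4:48074891-48075092). R26WT mice had 20.7, 16.2 and 19.0 CPM and R26TIR1(F74G) mice 11.3, 16.9 and 14.1. The second R26TIR1(F74G) mouse lay above the lowest R26WT mouse, so the groups overlap. The log2 fold change was -0.40 (SE 0.14, 95% interval -0.69 to -0.12), with an unadjusted p of 0.0067 and an adjusted p of 0.722 from the same edgeR test. Its mean count was 258, and 95% of all windows whose mean count reached 200 lay between -0.28 and 0.27, so it is outside that range. It was named for its large change, so this position is no separate evidence of a difference.

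At the promoters themselves, the Nr4a1 window had 32.2, 40.8 and 37.3 CPM in R26WT and 33.6, 28.3 and 33.2 in R26TIR1(F74G) mice on day 7. The groups overlap, and the log2 fold change was -0.21 (SE 0.12, adjusted p = 0.873 by edgeR). The Nr4a2 window had 4.97, 3.61 and 5.10 CPM in R26WT and 3.32, 3.10 and 4.15 in R26TIR1(F74G) mice, which overlap, and a log2 fold change of -0.33 (SE 0.20, adjusted p = 0.881 by edgeR). The Nr4a3 window that reaches into the printed promoter is centred 233 bp upstream. It had 33.4, 30.8 and 29.2 CPM in R26WT and 34.0, 28.7 and 33.3 in R26TIR1(F74G) mice, which overlap. The log2 fold change was 0.03 with a 95% interval of -0.21 to 0.27. The Nr4a3 window nearest the start site, 208 bp downstream, lies past the printed promoter. There the values were 12.3, 10.3 and 8.55 against 12.4, 9.24 and 10.4 CPM. Its log2 fold change was 0.01 with a 95% interval of -0.29 to 0.32. At the most accessible Nr4a3 window, 1932 bp upstream, the values were 54.6, 50.6 and 43.6 against 53.2, 50.9 and 56.9 CPM (log2 fold change 0.10, 95% interval -0.13 to 0.34).

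The largest day 7 differences, in both directions, were in windows with few reads. The largest was an increase at the Nr4a2 window 21542 bp downstream, beyond the end of the gene, with a mean count of 10.8. There R26WT mice had 0.323, 0.291 and 1.05 CPM and R26TIR1(F74G) mice 0.588, 0.834 and 1.26, which overlap (log2 fold change 0.97, SE 0.51, adjusted p = 0.854 by edgeR). The Nr4a3 window 28645 bp downstream, with a mean count of 22.1, had a log2 fold change of 0.66 (SE 0.33, adjusted p = 0.843 by edgeR). In the other direction, a pair of overlapping windows beyond the end of Nr4a2, 20905 and 20943 bp from the start site, had log2 fold changes of -0.79 (SE 0.38) and -0.85 (SE 0.40) at mean counts of 16.0 and 15.9. In the first of them R26WT mice had 1.16, 1.28 and 1.65 CPM and R26TIR1(F74G) mice 0.535, 0.894 and 0.860, without overlap, at an adjusted p of 0.837 in the edgeR test. The Nr4a1 window 19554 bp upstream, with a mean count of 49.4, had 3.49, 4.30 and 4.05 against 3.05, 2.8 and 2.78 CPM, also without overlap (log2 fold change -0.45, SE 0.21, adjusted p = 0.828 by edgeR). These low windows and those named below for their mean count under 50 were chosen after their values were seen.

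**Figure D3:**
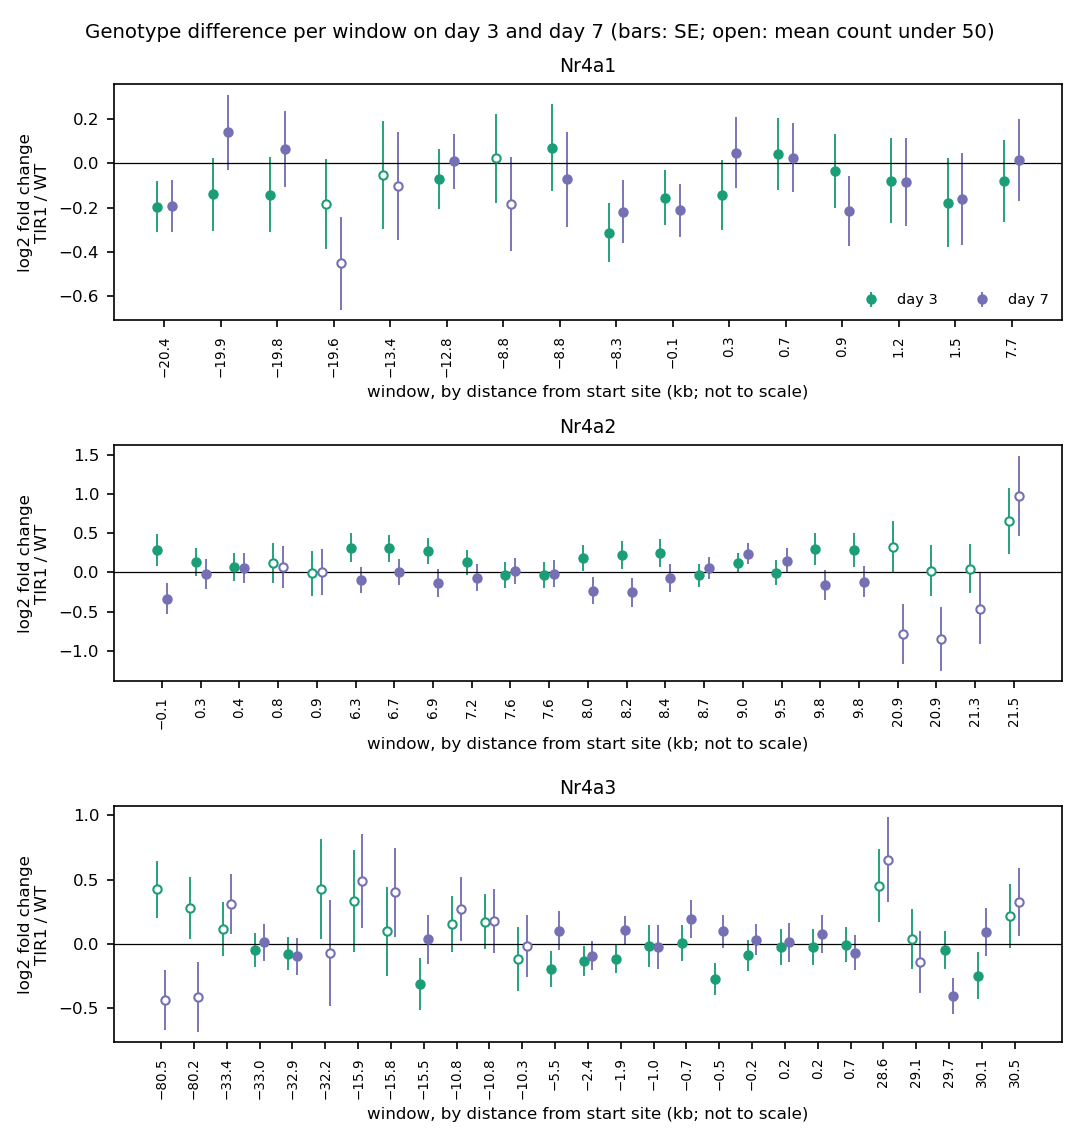
Log2 fold change of R26TIR1(F74G) against R26WT (vertical axis, a log scale) with its SE for every window, in order of distance from the start site (horizontal axis in kb, not to scale), on day 3 (green) and day 7 (purple). Open points have a mean count under 50. None passed the adjusted threshold, most Nr4a2 windows lie above 0 on day 3 but not on day 7, and the open points spread the most.

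On day 3, with 4 mice against 4, again 0 of 66 windows passed (smallest adjusted p 0.596 by edgeR), as did 0.0% of all windows. An unadjusted p under 0.05 was reached by 2 of the 66 (3.03%), against 7.55% of all windows, and by 2 with DESeq2, against 4.99%. Groups did not overlap in 3 of the 66 (4.55%), against 4.1% of all windows. The 3 genes leaned in different directions, none of which is a tested change. Of the Nr4a1 windows 13 of 16 were lower in R26TIR1(F74G) mice (median log2 fold change -0.11), of the Nr4a2 windows 18 of 23 were higher (median 0.14), and the Nr4a3 windows split into 12 higher and 15 lower (median -0.02), beside a median of 0.01 over all windows.

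All windows of the table also leaned by mean count on day 3. The median log2 fold change of all 14870 windows whose mean count reached 200 was -0.13, and that of the 11 Nr4a windows of this kind was -0.12. All 51880 windows with mean counts from 50 to 200 had a median of -0.06 and the 34 Nr4a windows of this kind -0.01. These counts depend on the scaling. With loess offsets, which centre windows of like count, Nr4a1 had 11 of 16 lower (median -0.05), Nr4a2 20 of 23 higher (median 0.23) and Nr4a3 turned to 21 of 27 higher (median 0.06). With total counts as library size, which moved the median of all windows to 0.06, the same numbers were 11 lower, 23 higher and 17 higher.

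The Nr4a1 window 8277 bp upstream (chr15:101258469-101258670), inside the annotated gene between the far upstream starts and the promoter, was the one without overlap at its gene on day 3. R26WT mice had 19.2, 16.4, 16.9 and 24.3 CPM and R26TIR1(F74G) mice 14.9, 16.3, 15.3 and 15.4. All 4 R26TIR1(F74G) mice lay below all R26WT mice, by a narrow margin at 16.3 against 16.4. The log2 fold change was -0.31 (SE 0.13, 95% interval -0.57 to -0.05) with an adjusted p of 0.596 in the edgeR test. On day 7 the same window had 18.2, 19.7 and 16.9 CPM in R26WT and 12.2, 19.4 and 16.0 in R26TIR1(F74G) mice, which overlap (log2 fold change -0.22, SE 0.14). That day 7 value was -0.06 without R26TIR1(F74G) replicate 1 and -0.38 without replicate 2 of the same group.

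The other windows without overlap on day 3 were at Nr4a2, 6943 and 8407 bp downstream. In the first, R26WT mice had 4.24, 5.69, 4.78 and 5.31 CPM and R26TIR1(F74G) mice 5.75, 5.85, 6.04 and 6.68, a log2 fold change of 0.28 (SE 0.17, adjusted p = 0.736 by edgeR). In the second, the values were 3.38, 4.70, 4.71 and 4.72 against 5.75, 5.15, 5.14 and 5.15 CPM, a log2 fold change of 0.25 (SE 0.18, adjusted p = 0.789 by edgeR). Both lie inside the gene, and both were named after their values were seen. On day 7 their log2 fold changes were -0.13 (SE 0.18) and -0.07 (SE 0.18).

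At the Nr4a2 promoter window the day 3 values were 2.68, 2.91, 3.96 and 3.48 CPM in R26WT and 5.22, 4.67, 2.68 and 3.86 in R26TIR1(F74G) mice, which overlap widely (log2 fold change 0.29, SE 0.21). At the Nr4a1 promoter window they were 27.4, 31.4, 36.3 and 38.9 against 32.0, 35.4, 22.6 and 30.8 CPM (log2 fold change -0.15, SE 0.12), which overlap. With single mice left out this value ran from -0.25 without R26TIR1(F74G) replicate 2 to -0.03 without R26TIR1(F74G) replicate 3. At the Nr4a3 window 475 bp upstream, just before the promoter and likewise named after its values were seen, R26WT mice had 23.0, 21.5, 24.2 and 22.4 CPM and R26TIR1(F74G) mice 17.6, 22.4, 17.8 and 17.0. One R26TIR1(F74G) mouse reached the R26WT range, and the log2 fold change was -0.27 (SE 0.12, unadjusted p 0.0320, adjusted p = 0.627 by edgeR).

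**Figure D4:**
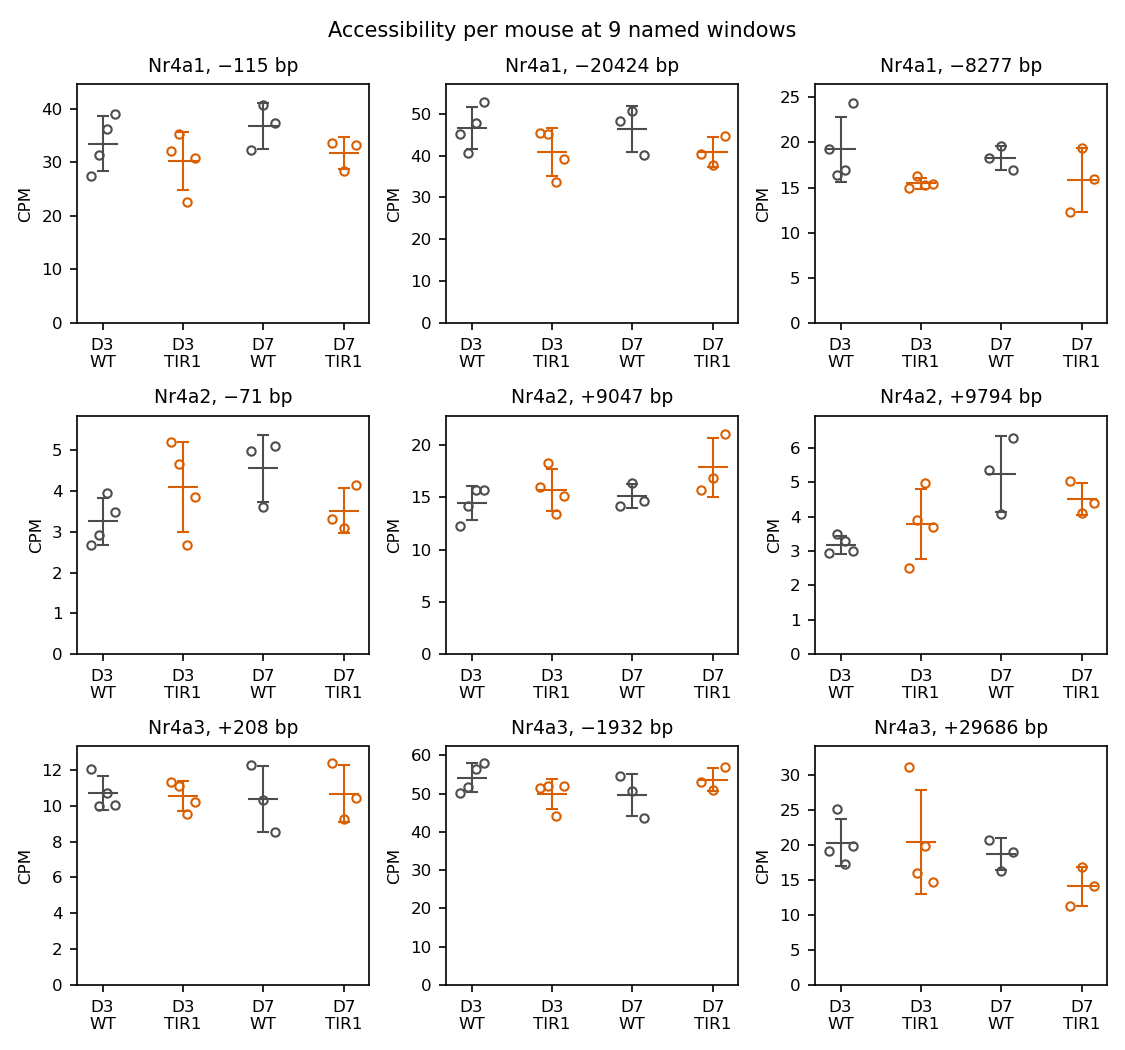
CPM (vertical axes, linear from 0, each panel with its own scale) at 9 named windows in every mouse (open points), by day and genotype, with group means and SD. Columns of points overlap in nearly all panels. The Nr4a1 window at -8277 bp shows 4 R26TIR1(F74G) mice at 14.9 to 16.3 on day 3, and the Nr4a3 window at +29686 bp one R26TIR1(F74G) mouse at 31.1.

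With both days in one fit and day as a term, 7 mice stood against 7. Again 0 of 66 windows passed (smallest adjusted p 0.599 by edgeR), where 0.0112% of all windows did. An unadjusted p under 0.05 was reached by 5 of 66 (7.58%), against 6.73% of all windows, and by 5 with DESeq2, against 5.88%, which gave an adjusted p for 22 of the 66 windows. Of these 5 windows 3 were at Nr4a1 and lower in R26TIR1(F74G) mice. The other 2 were windows with few reads and higher in R26TIR1(F74G) mice, at Nr4a2 21542 bp downstream (log2 fold change 0.78, SE 0.33, adjusted p = 0.664 by edgeR) and at Nr4a3 28645 bp downstream (0.54, SE 0.21, adjusted p = 0.630). Over the loci, 14 of the 16 Nr4a1 windows were lower (median log2 fold change -0.07, beside 0.00337 over all windows). Where the mean count reached 50, the medians were -0.06 at Nr4a1 and -0.03 over all windows. At Nr4a2 16 of 23 windows were higher (median 0.06) and at Nr4a3 16 of 27 lower (median -0.02), which turned to 16 higher with loess offsets and with total counts.

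The Nr4a1 window 8277 bp upstream had between 16.4 and 24.3 CPM in R26WT mice (median 18.2, n = 7) and between 12.2 and 19.4 in R26TIR1(F74G) mice (median 15.4, n = 7). The ranges overlap, and the log2 fold change was -0.27 (SE 0.10, 95% interval -0.47 to -0.07, unadjusted p 0.00886, adjusted p = 0.599 by edgeR). The most accessible Nr4a1 window, 20424 bp upstream (chr15:101246322-101246523), had between 40.2 and 52.8 CPM in R26WT (median 47.7) and between 33.6 and 45.5 in R26TIR1(F74G) mice (median 40.4), a log2 fold change of -0.19 (SE 0.08, 95% interval -0.36 to -0.02, adjusted p = 0.686 by edgeR). Its log2 fold change was -0.20 on day 3 and -0.19 on day 7. Over all settings these values ran from -0.25 to -0.06 on day 3 and from -0.27 to -0.12 on day 7. The medians of all windows whose mean count reached 200 were -0.13 on day 3 and 0.01 on day 7. In the fit of both days the median of such windows was -0.06, with 95% of them between -0.26 and 0.13. The window at 8277 bp lies just outside that range and the one at 20424 bp inside it. The window at 8277 bp was named as the largest decrease at its gene, so its position is no separate evidence of a difference.

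Averaged over its non-overlapping windows, Nr4a1 had 11.9 to 13.4 CPM per window in R26WT and 10.9 to 11.6 in R26TIR1(F74G) mice on day 7, without overlap, and 10.9 to 14.7 against 9.42 to 12.5 on day 3, with overlap. Nr4a2 had 5.59 to 5.92 against 5.12 to 6.16 on day 7 and 4.44 to 5.48 against 5.25 to 6.31 on day 3. Nr4a3 had 10.5 to 12.0 against 10.8 to 11.4 and 10.7 to 12.2 against 10.0 to 11.7. These means describe the loci and were not tested. Among all single windows, a different measure, the day 7 groups did not overlap in 11.8%. The share of loci averaged in this way was not counted.

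Between days, with genotype as a term, 0 of 66 windows passed (smallest adjusted p 0.797 by edgeR), where 0.00332% of all windows did. An unadjusted p under 0.05 was reached by 6 of 66 (9.09%), against 5.47% of all windows, and by 5 with DESeq2, against 4.63%. DESeq2 called 0 of the 59 Nr4a windows to which it gave an adjusted p, and 0.00911% of all such windows. The smallest was that of the Nr4a2 window 9794 bp downstream, which overlaps the window at 9847 bp. It had 2.94, 3.51, 3.28 and 3.01 CPM in R26WT mice on day 3 and 5.36, 4.07 and 6.30 on day 7, and 2.52, 3.92, 4.99 and 3.70 against 5.03, 4.11 and 4.40 in R26TIR1(F74G) mice. In R26WT mice the days do not overlap, in R26TIR1(F74G) mice they do, and the log2 fold change of day 7 against day 3 was 0.42 (SE 0.14, unadjusted p 0.00408, adjusted p = 0.797 by edgeR). The Nr4a3 element 29686 bp downstream had a log2 fold change of day 7 against day 3 of -0.30 (SE 0.12, adjusted p = 0.870 by edgeR), with a day 3 range of 14.7 to 31.1 CPM in R26TIR1(F74G) mice, where the highest value came from the least deeply sequenced library, replicate 1, without which the log2 fold change was -0.19. The day and any handling that went with it cannot be told apart.

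Whether the genotype difference itself differed between days was tested by an interaction term. It passed in 0 of 66 windows (smallest adjusted p 0.728 by edgeR) and in 0.0% of all windows. An unadjusted p under 0.05 was reached by 4 of 66 (6.06%), against 6.32% of all windows, and by 3 with DESeq2, against 4.74%. At Nr4a2 16 of 23 windows had a negative term, meaning that R26TIR1(F74G) against R26WT was lower on day 7 than on day 3, with a median of -0.30 beside -0.01 over all windows. Among windows whose mean count reached 50 the medians were -0.30 at Nr4a2 and 0.11 over all windows. With the other scalings 16 to 20 of the 23 windows were negative. The term was -0.62 (SE 0.30, 95% interval -1.22 to -0.03, adjusted p = 0.783 by edgeR) at the promoter window. There the highest value of R26TIR1(F74G) mice on day 3 (5.22 CPM) came from the least deeply sequenced library of its group. The same held for R26WT mice on day 7 (5.10 CPM). The smallest unadjusted p, 0.00962, was that of the Nr4a3 window 80501 bp upstream, with a mean count of 40.5, where R26TIR1(F74G) mice had a higher mean on day 3 (log2 fold change 0.43, SE 0.22) and a lower one on day 7 (-0.44, SE 0.23).

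The same tests were read for genes around the family. Upstream of the receptors stand Nfatc1, Nfatc2 and Nfatc3 (calcium-driven activators), the calcineurin subunits Ppp3ca, Ppp3cb and Ppp3r1, the factors Mef2a, Mef2d and Creb1, the histone deacetylase Hdac7, which represses MEF2 targets, and the kinase Prkd2, which exports such deacetylases from the nucleus. None of their 418 windows passed on either day or over both days by edgeR, with 28 of 415 tested windows at an unadjusted p under 0.05 on day 7 (6.75%), 36 of 413 on day 3 (8.72%) and 29 of 418 over both days (6.94%). Among all windows 5.95%, 7.55% and 6.73% did so, which is the background for the lists that follow as well. DESeq2 called none either, with 8, 30 and 25 windows at an unadjusted p under 0.05, where the shares of all windows were 2.68%, 4.99% and 5.88%. All 11 genes had a start-site window, from 1.34 CPM at Hdac7 to 63.6 at Creb1.

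The partner receptors Rxra, Rxrb and Rxrg, which form heterodimers with Nr4a1 and Nr4a2, had 56 windows and none passed on day 7, on day 3 or over both days. By edgeR, 2 of 56 windows on day 7 (3.57%), 4 of 55 on day 3 (7.27%) and 6 of 56 with the days together (10.7%) had an unadjusted p under 0.05, and 0, 4 and 6 by DESeq2. Start-site windows were present at Rxra (1.37 CPM) and Rxrb (10.1), not at Rxrg. Of 217 windows at other early response genes of T cell receptor signalling (Egr1, Egr2, Egr3, Fos, Fosb, Junb and Cd69), none passed on day 7, day 3 or both days by edgeR, with 12 (5.53%), 19 (8.76%) and 20 (9.22%) at an unadjusted p under 0.05. DESeq2 had 5, 15 and 17 at an unadjusted p under 0.05 and called 1 over both days, where it called 155 of the 30712 windows to which it gave an adjusted p (0.505%) and edgeR 27 of 240778. That window lay 4846 bp upstream of Egr1, with a log2 fold change of -0.29 and an adjusted p of 0.0340 in DESeq2 against 0.405 in edgeR. Their start-site windows ranged from 4.32 CPM at Egr3 to 48.5 at Egr1, so the Nr4a1 promoter at 32.9 was close to that of Fos at 33.1, while that of Nr4a2, read at its RefSeq start and not at the canonical start inside the gene, was below all of them.

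Genes that act with or downstream of the family in T cells (Foxp3, Ikzf2, Ikzf4, Ctla4, Il2ra, Tox, Tox2, Irf4, Il4, Il21, Bcl2l11 and Pdcd1) had no window that passed on day 7, day 3 or over both days by edgeR. Of their tested windows 21 (4.11%), 25 (4.94%) and 29 (5.63%) had an unadjusted p under 0.05, each below the share of all windows, and 8, 15 and 24 with DESeq2. The smallest adjusted p over both days in this list was at the start site of Il2ra, the high-affinity IL-2 receptor chain, with a log2 fold change of -0.42 and an adjusted p of 0.218 in the edgeR test, and this was the 1 window of the list that DESeq2 called (adjusted p = 0.00824). Of the apoptosis gene Bcl2l11 and the inhibitory receptor gene Pdcd1 the start-site windows had log2 fold changes of -0.15 and -0.14 over both days.

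Across the 14 libraries, the genes whose start-site windows varied most like those of the family were found among 9696 genes by Pearson's r of log2 CPM, given as a description, since all points share library depth, composition and the CPM scaling. For Nr4a1 they were Tfeb (r = 0.92), Fzd7 (0.91), Nktr (0.91), Ctnnb1 (0.91) and Dctn2 (0.90). For Nr4a2 they were Bub3 (0.87), Nisch (0.86), Slc4a2 (0.83), Gtf3a (0.82) and Trim69 (0.82), and for Nr4a3 Asnsd1 (0.90), Foxo4 (0.85), Irf2bp1 (0.84), Sdhaf2 (0.82) and P2ry10 (0.82). The genes compared were those whose start-site window reached a mean count of 50. The members were not on each other's lists. Their own start-site windows had r = 0.54 between Nr4a1 and Nr4a2, 0.00442 between Nr4a1 and Nr4a3 and 0.08 between Nr4a2 and Nr4a3 over the 14 libraries, and their most accessible windows 0.23, 0.66 and 0.45. Within a gene, the start-site window and the most accessible window had r = 0.74 at Nr4a1, 0.42 at Nr4a2 and 0.49 at Nr4a3.

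Mice of one group varied as follows. Among R26WT mice within a day, the SD of log2 CPM was 0.21 at the Nr4a1 start-site window, 0.25 at that of Nr4a2 and 0.19 at that of Nr4a3, above those of 68.0%, 85.9% and 58.7% of 9697 genes, whose median was 0.18.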

How the data were processed

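Bulk ATAC-seq of 14 mice was used, with groups and days taken from the labels and each column tied to a sample through the mouse name that both carry. Per the methods and the submitters' processing notes (mm10), the authors used Bowtie2 for alignment, MACS2 for peaks, which they merged where reproducible, and featureCounts for reads at peak summits. The deposited values are raw counts per window, without normalization, so alignment, duplicate handling and any transposase offset could not be varied. Window coordinates are printed as deposited (GRCm38).

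The members and gene lists were chosen with earlier results of these data known. Start sites came from the RefSeq promoter table for 17492 of 21900 protein-coding genes and from gene ends with GENCODE strand for 3949, and 459 genes without strand were left out. Windows named are the one nearest each start site, the 3 with the highest mean count, and, for each genotype comparison and the day comparison, those with the largest log2 fold changes up and down where the mean count reached 50. Others are marked as chosen after their values were seen.

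Counts were tested with edgeR 4.0.16 (glmQLFit and glmQLFTest, limma 3.58.1, R 4.3.3) after TMM normalization, using windows whose mean count over the fitted samples reached 10, two-sided, with Benjamini-Hochberg adjustment over all windows and a threshold of 0.05. The fits were genotype on day 7, genotype on day 3, both days with day as a term, day with genotype as a term, and their interaction. CPM uses TMM factors over all 14 libraries, and log2 CPM a prior count of 2. Tables were built with Python 3.11.15. The procedure was tested on simulated counts. Alternatives were DESeq2 1.42.0, other scalings, filters, thresholds and terms, each mouse left out, a fit of all 14 libraries and start sites from gene ends for all genes, the last chosen after seeing the data.

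Replicates are separate mice, and no pair of libraries was identical (chi-square per degree of freedom 1.63 to 2.46 for the 18 pairs of replicates). Depth was 5653289 to 20184487 counts. PCR reads without molecular identifiers are not independent molecules. Window sequences were not read, because the genome at hand is GRCm39. A further B cell marker of the marker list is not reported here.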

Additional observations from a re-analysis of the deposited data

Results flagged for a closer look

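At the most accessible Nr4a3 window, 1932 bp upstream of the start site, R26TIR1(F74G) replicate 3 of day 3 had 44.1 CPM while the other 3 mice of its group had 51.4 to 52.1, a gap of 0.914 of the group's range. Such a sample far from the others was looked for in 48 groups, the 24 named windows in both day 3 groups of 4 mice, and 1 was found, where chance gives about 1 in 20 groups, or 2.4. With all mice the log2 fold change of R26TIR1(F74G) against R26WT at this window on day 3 was -0.12, and without that mouse -0.061, at an adjusted p of 0.975 in the edgeR test.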

How the results depend on the processing

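No Nr4a window passed the threshold under any alternative in any of the 5 comparisons, 0 in each, with DESeq2, an adjusted p under 0.1, windows within 10 kb, and start sites from gene ends (83 windows, a choice made after seeing the data) included. Counts at an unadjusted p under 0.05 ranged from 0 to 6 on day 7, 1 to 6 on day 3, 1 to 7 over both days, 3 to 7 for day and 2 to 6 for the interaction. With replicate number as a block the count was likewise 0 in each comparison and no direction of a named window turned. The numbers do not pair the mice, since the deviations of same-numbered mice of both genotypes had correlations of -0.073 to 0.066, under the limit of 0.1.

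Of 43 log2 fold changes of named windows, 28 kept their direction in every setting and 15 turned in at least 1, and the cause was not tested. With loess offsets the day 7 values turned to -0.0028 at Nr4a1 -12798 bp and -0.016 at Nr4a3 208 bp, and the day 3 values to 0.053 at Nr4a1 -12798 bp, 0.058 at Nr4a2 8747 bp, 0.069 at Nr4a2 9479 bp, 0.066 at Nr4a3 208 bp, 0.027 at Nr4a3 -1932 bp, 0.0043 at Nr4a3 -2411 bp and 0.041 at Nr4a3 -233 bp. With a higher filter, a mean count of 50, they turned on day 7 to -0.018 at Nr4a1 -12798 bp and -0.013 at Nr4a3 208 bp, on day 3 to 0.019 at Nr4a1 -12798 bp, 0.055 at Nr4a2 8747 bp, 0.087 at Nr4a2 9479 bp and 0.060 at Nr4a3 208 bp, and over both days to 0.011 at Nr4a2 7604 bp. With total counts they turned on day 3 to 0.024 at Nr4a2 8747 bp, 0.057 at Nr4a2 9479 bp and 0.031 at Nr4a3 208 bp, and over both days to 0.0069 at Nr4a2 7604 bp. With the prefix of the mouse name as a term they turned to -0.0037 at Nr4a2 8747 bp on day 7, 0.011 at Nr4a2 9479 bp and 0.016 at Nr4a3 208 bp on day 3 and 0.038 at Nr4a2 7604 bp over both days. At Nr4a2 9479 bp day 3 became 0.0001 with DESeq2's size factors and 0.0022 with all 14 libraries in one fit.

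With each mouse left out in turn, the ranges that crossed 0 were -0.065 to 0.081 at Nr4a1 -12798 bp (day 7), -0.19 to 0.11 at Nr4a1 -12798 bp (day 3), -0.012 to 0.099 at Nr4a2 8747 bp (day 7), -0.17 to 0.053 at Nr4a2 8747 bp (day 3), -0.13 to 0.055 at Nr4a2 9479 bp (day 3), -0.10 to 0.15 at Nr4a3 208 bp (day 7), -0.053 to 0.033 at Nr4a3 208 bp (day 3), -0.011 to 0.11 at Nr4a3 -233 bp (day 7), -0.15 to 0.010 at Nr4a3 -233 bp (day 3), -0.097 to 0.14 at Nr4a1 -8753 bp (day 3), -0.029 to 0.086 at Nr4a1 717 bp (both days), -0.11 to 0.052 at Nr4a2 7604 bp (both days) and -0.055 to 0.083 at Nr4a3 -695 bp (day 3).

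Depth and group size limit these comparisons. Of the 66 windows 21 have a mean count under 50, and a genotype group holds 4 mice on day 3 and 3 on day 7.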
